A study of Mus musculus with 27 samples.

Results

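The granins and their prohormone processing partners were followed as 10 genes across 27 libraries of mouse primary cortical cells. They are Vgf, Scg2, Scg3, Scg5, Chga, Chgb, Pcsk1, Pcsk2, Pcsk1n and Cpe, and they were taken by symbol from a deposited table of 59489 gene models, of which 23508 have a symbol. All 10 were present, and in both experiments all 10 passed the filter on low values, which asked for 3 or more libraries at an FPKM of 1 or above. FPKM is a count of fragments scaled to the length of the transcript and the depth of the library, so levels can be compared between genes.

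The cells came from wild type embryos at embryonic day 16.5, were kept for 14 days in culture, and polyadenylated RNA was sequenced with 3 libraries in each of 9 groups. In the first experiment (9 libraries) every group received 50 µM DRB, a blocker of transcription elongation, for 2 h, and cells were left unstimulated or given bicuculline (20 µM, 1 h) or BDNF (50 ng/mL, 1 h). Bicuculline is an antagonist of GABA-A receptors that releases neurons from inhibition, and BDNF is a neurotrophin that signals through TrkB. The second experiment had 18 libraries. Here every group received 1 µM triptolide, an inhibitor of transcription initiation, for 3 h, with or without bicuculline (20 µM, 1 h), and the RNA of whole cells, of nuclei and of cytosol was sequenced separately. No group without an inhibitor was analysed here, so every level was measured in the presence of an inhibitor of transcription.

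Neuropeptides and peptide hormones are made as larger precursors that enter the regulated secretory pathway. Granins are acidic proteins of that pathway: they condense with cargo in the trans-Golgi network, help to form dense-core vesicles, and are themselves cut into peptides. Inside the maturing vesicle the convertases Pcsk1 and Pcsk2 cut precursors at pairs of basic residues, and Cpe, carboxypeptidase E, trims the basic residues left at the end of each fragment. Pcsk1n encodes proSAAS, an inhibitor of Pcsk1, and Scg5 encodes a chaperone that Pcsk2 needs for its maturation. In cortical neurons several of these genes, Vgf and Scg2 in particular, are known as targets of neurotrophins or of neuronal activity through the cAMP response element, or CRE.

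The promoter sequences of the genes are shown for that element. RefSeq windows of 300 bases (GRCm38.p6), from 250 before to 50 after the start site, were matched by symbol for 8 of the 10 genes, all but Vgf and Cpe. The full CRE, TGACGTCA, which reads the same on both strands, was present in 3 of the 8 windows and in 1.79% of 32851 RefSeq windows. Scg3, Scg5, Pcsk2 and Chga held only its core TGACG, and of these Chga is added as an example. The 30 bases around each printed element are given 5′ to 3′ on the strand of the gene, with the matched letters in capitals:
Scg2: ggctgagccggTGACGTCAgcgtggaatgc
Chgb: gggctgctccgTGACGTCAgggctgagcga
Pcsk1: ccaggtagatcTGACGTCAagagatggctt
Chga: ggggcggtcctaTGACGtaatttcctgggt

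The Scg2 stretch is chr1:79440076-79440105 on the minus strand, the Chgb stretch chr2:132781559-132781588 on the plus strand and the Pcsk1 stretch chr13:75089768-75089797 on the plus strand. Their elements begin 68, 72 and 78 bases before the RefSeq start, at -68, -72 and -78. In GENCODE M21 the Scg2 and Chgb stretches overlap an annotated exon of the gene itself, and the Pcsk1 stretch lies outside the gene. The Chga stretch (chr12:102554885-102554914, plus strand, outside the gene, capitals at -44) holds only the core TGACG. That core, searched on both strands and contained in every full CRE, was found in 7 of the 8 windows and in 20.8% of all windows. The AP-1 letters TGANTCA were found in 1 of the 8 windows (Pcsk1n) against 7.81% of all, and the EGR letters GCGGGGGCG in 2 (Chgb and Pcsk2) against 2.91%. A match describes the letters only.

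Libraries were deep and markers showed mixed cultures. The size of the smallest step between values gave 67586553 to 147958762 fragments per library, on the assumption that a step is 1 fragment, and each gene of the 10 then rested on at least 2081 fragments (Pcsk1) and at most 200456 (Cpe) in any library. Summed markers of excitatory neurons were at 512.8 to 896.8 FPKM, interneurons 104.8 to 302.4, astrocytes 336.9 to 630.4 and the oligodendrocyte lineage 60.8 to 224.0. Those of microglia (2.36 to 9.78) and vascular cells (1.24 to 4.14) were low. In such mixed bulk samples fewer cells of a type and less RNA per cell cannot be told apart. Under DRB the 3 libraries numbered replicate 2 stood apart from the other 6 on the first principal component, which held 51.5% of the variance. Libraries with the same replicate number, here called a set, deviated together in both experiments and share a code in the sample descriptions, so results are also given with the set as a block where that changes a call. The labels do not explain that code or say how the replicates were obtained, and p-values measure the spread between these libraries, which may be technical.

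The 10 genes spanned a wide range of levels and together held 0.4157 to 0.7043% of all FPKM in a library. Cpe was the most abundant, with 606.9 ± 34.7 FPKM (SD, n = 3) in unstimulated cells under DRB, rank 34 among all genes with a symbol, and 953.5 ± 40.2 in unstimulated whole cells under triptolide, rank 8. Scg5 followed with 538.8 ± 29.2 (rank 49) and 621.2 ± 31.7 (rank 34). These are levels reached by few genes in these cells.

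A middle group lay well below. In unstimulated cells under DRB, Chgb was at 139.8 ± 7.4 FPKM, Scg3 at 119.1 ± 8.05, Pcsk2 at 103.0 ± 8.34, Chga at 92.4 ± 9.41 and Pcsk1n at 68.6 ± 8.53. In that order each gene's libraries overlapped those of the next, except for Chgb, whose lowest library (132.0) was above the highest of Scg3 (124.2), and Chga, whose lowest (81.7) was above the highest of Pcsk1n (77.9). Scg2 (30.9 ± 4.58) and Vgf (30.5 ± 6.02) were alike within their spread. Pcsk1 was the lowest at 9.08 ± 2.55, so the convertase pair was expressed unequally, with Pcsk2 above Pcsk1 in every one of the 27 libraries.

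Under triptolide the whole-cell order differed for some genes: Vgf was at 75.2 ± 10.9 FPKM, Scg2 at 48.2 ± 14.2 and Pcsk1n at 43.6 ± 7.86. Chga (87.3 ± 4.44) and Pcsk1 (9.51 ± 1.08) were near their values under DRB. The inhibitors, their durations and the library sets differ between the experiments and cannot be told apart, so no test of level was made between them.

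**Figure D1:**
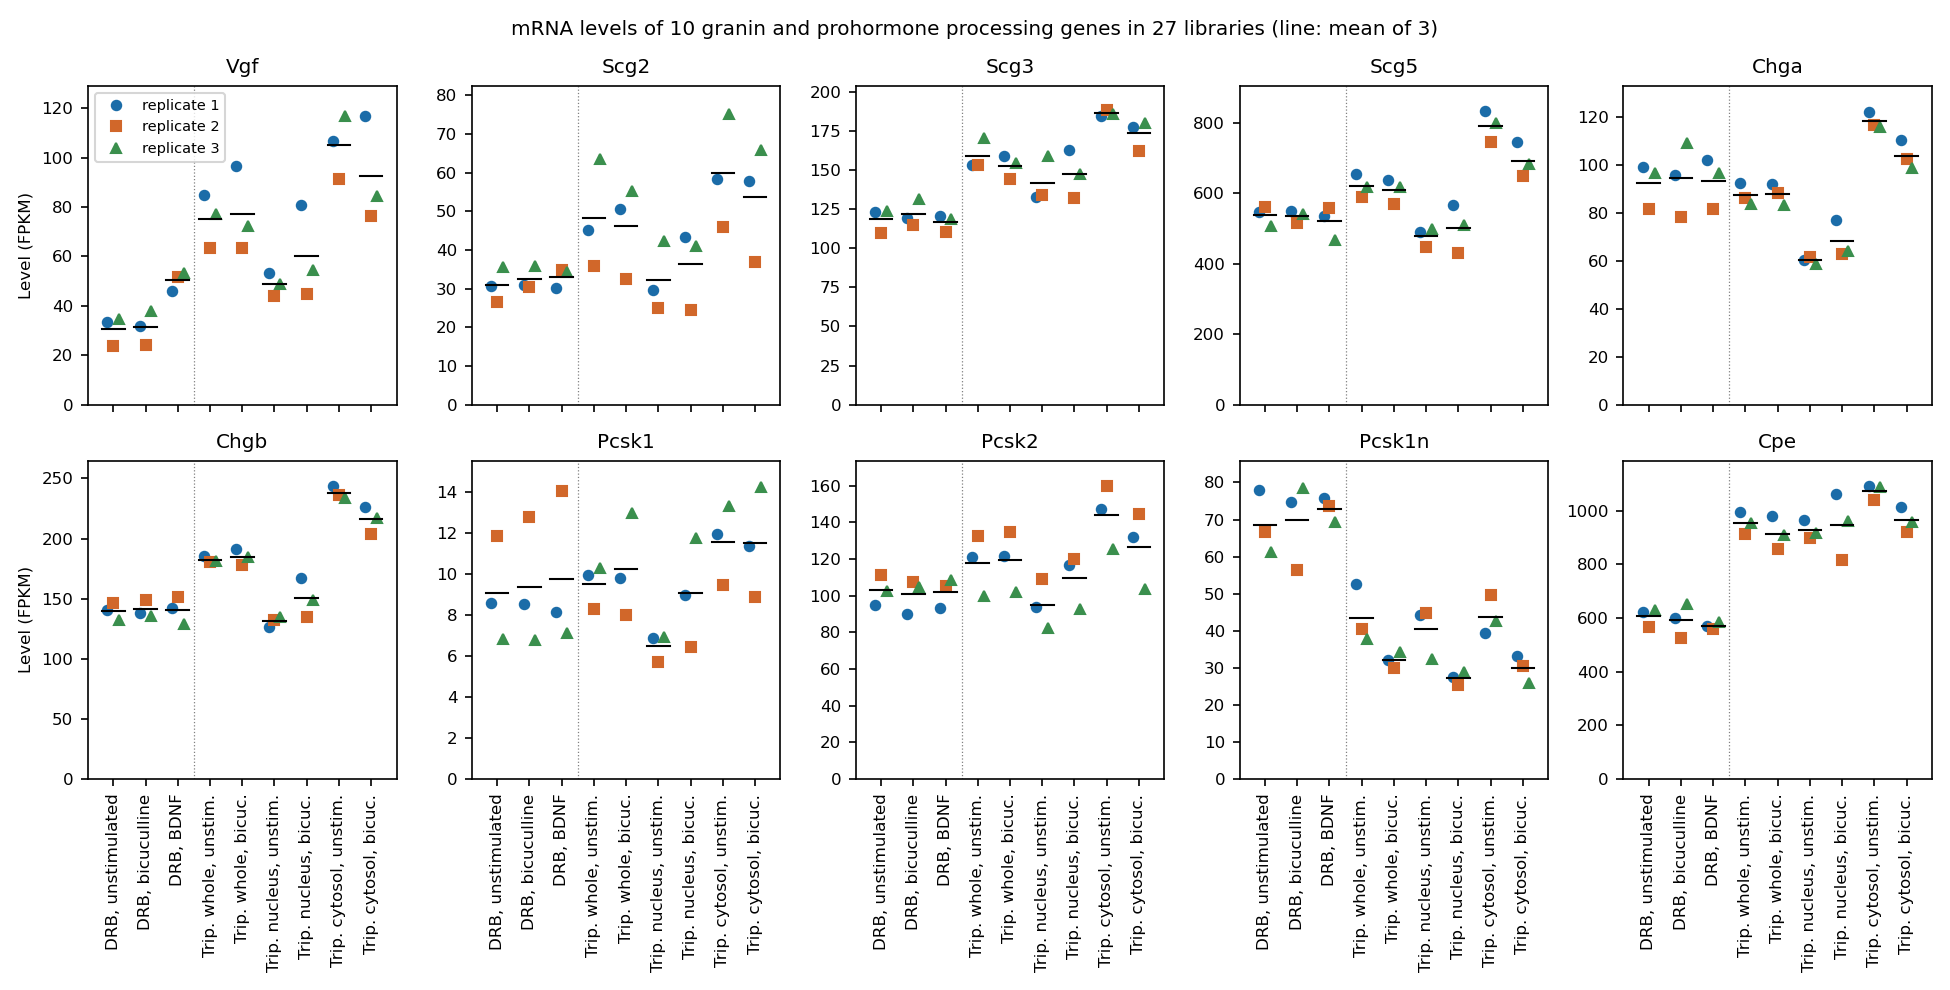
FPKM of the 10 genes (y axis, linear from 0, scaled for each gene) in the 9 groups (x axis; the dotted line separates DRB from triptolide), with points for libraries coded by replicate number and a line for each group's mean. Vgf was at 46.1 to 53.3 with BDNF against 23.6 to 34.6 unstimulated, Pcsk1n was lower with bicuculline in every triptolide fraction, and nuclear FPKM as deposited lay below cytosolic FPKM for most genes.

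Bicuculline under DRB left all 10 genes near their unstimulated level. The estimated log2 changes ran from -0.04 (Cpe) to 0.07 (Scg2), each on the log2(FPKM + 0.5) scale and no larger than its SE. By limma 0 of 10 genes were called at an adjusted p under 0.05, against 0.308% of the 13321 genes tested. At an unadjusted p under 0.05 there were also 0, against 2.0% of all genes. Vgf was at 33.4, 23.6 and 34.6 FPKM unstimulated and at 31.9, 24.1 and 37.9 with bicuculline. Scg2 was at 30.6, 26.5 and 35.6 and then at 30.9, 30.5 and 35.8. The groups overlapped for both genes. In the same libraries immediate early genes responded: Npas4 rose from a mean of 5.87 to 162 FPKM, Arc from 0.924 to 29.7 and Fos from 11.8 to 144.5 (limma adjusted p 0.00015, 1.09e-06 and 0.000177). Of 12 immediate early genes tested 11 rose, with a median log2 change of 1.95 against 0 over all genes.

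With BDNF under DRB, Vgf was the gene of the 10 with the largest difference. It was at 33.4, 23.6 and 34.6 FPKM in unstimulated cells and at 46.1, 51.8 and 53.3 with BDNF. All 3 BDNF libraries lay above all 3 unstimulated ones, which held in that direction for 6.85% of all genes tested. The difference was 0.73 ± 0.18 (log2, SE), with a limma adjusted p of 0.266. With the set as a block the estimate was the same, the SE was 0.13 and the adjusted p was 0.0422, a call that 1.49% of genes reached in that fit. Within sets the log2 differences were 0.46, 1.12 and 0.62, higher in 3 of 3.

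The largest of these came from the set that stood apart. Without replicate 2 in each DRB group the Vgf difference was 0.54 ± 0.11 (limma adjusted p 0.275), an alternative added after the data were seen. The other 9 genes had log2 changes from -0.09 (Cpe) to 0.10 (Scg2), and none was called with or without the block. Without the block 0 of 10 were called against 0.638% of all genes, and Vgf alone had an unadjusted p under 0.05, against 3.47%. Scg2, like Vgf known as an activity-regulated granin, was at 30.3, 34.7 and 34.2 FPKM with BDNF, and the groups overlapped.

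Compared with bicuculline directly, Vgf was 0.70 ± 0.18 higher with BDNF (log2; limma adjusted p 0.616, and 0.0956 with the block). The 3 BDNF libraries again lay above all 3 bicuculline libraries, which held for 3.38% of all genes. By limma 0 of 10 genes were called in this comparison, against 0.128% of all genes, and Vgf alone had an unadjusted p under 0.05, against 2.6%. The bicuculline and BDNF comparisons share the unstimulated libraries. Among the immediate early genes Arc was higher with BDNF than with bicuculline by 2.03 ± 0.12 (adjusted p 0.000829).

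Under triptolide the gene with the largest difference was Pcsk1n, which was lower with bicuculline in all 3 fractions. In whole cells it was at 52.5, 40.6 and 37.7 FPKM unstimulated and at 32.2, 30.1 and 34.3 with bicuculline. In nuclei it was at 44.3, 44.9 and 32.3 and then at 27.4, 25.4 and 28.9. In the cytosol it was at 39.3, 49.6 and 42.5 and then at 33.3, 30.5 and 26.0. The groups did not overlap in any fraction, and in each fraction Pcsk1n was lower in all 3 sets. The fractions of a set share its code, so they do not count as separate replicates. The smallest differences within sets were -0.13 in whole cells and -0.16 in nuclei, both in set 3.

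The fitted changes of Pcsk1n were -0.42 ± 0.14 in whole cells (limma adjusted p 0.237, with the block 0.0944), -0.55 ± 0.14 in nuclei (0.0548, with the block 0.0172) and -0.54 ± 0.14 in the cytosol (0.0444, with the block 0.0164). Groups that do not overlap in this direction made up 4.24% of genes in whole cells, 8.26% in nuclei and 2.26% in the cytosol. The cytosolic call is close to the threshold: without any 1 of the 6 libraries the change stayed between -0.62 and -0.45 and the adjusted p lay between 0.0588 and 0.198. It also missed the threshold with median-ratio scaling (0.0638) and with quantile normalization (0.216). Under DRB the bicuculline change of Pcsk1n was 0.02 ± 0.13. The difference between its responses, DRB minus whole cells under triptolide, was 0.44 ± 0.21 with a limma adjusted p of 1 (0.587 with the block), so the responses were not shown to differ. In that comparison of responses 0 of 10 genes were called, against 0.138% of all genes, and 0 had an unadjusted p under 0.05, against 2.24%.

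Bicuculline responses of the other 9 genes under triptolide are given by fraction. The test of the difference between nuclear and cytosolic responses, given below, called 0 of 10 genes, against 0.556% of all genes. In whole cells the changes of these 9 genes ran from -0.06 to 0.09. By limma 0 of 10 genes were called, against 0.0352% of all genes, and Pcsk1n alone had an unadjusted p under 0.05, against 11.0%. In nuclei all 9 had positive estimates (Cpe at 0.02, and at 0.00 with quantile normalization), led by Pcsk1 at 0.41 ± 0.21 and Vgf at 0.26 ± 0.21. Single libraries decided several of these values. Without the bicuculline replicate 1 Vgf was at 0.02, Scg3 at -0.02, Scg5 at -0.03 and Cpe at -0.06, and without the unstimulated replicate 2 Scg2 was at -0.01. Without the bicuculline replicate 2 Vgf was at 0.45 and Pcsk1 at 0.62, and without the bicuculline replicate 3 Pcsk1 was at 0.22. There 0 of 10 were called, against 1.81% of all genes, and 3 (Chga, Chgb and Pcsk1n) had an unadjusted p under 0.05, against 17.4%. With the block 5 of 10 were called, against 13.1% of all genes (7.72% higher and 5.39% lower): Pcsk1n was lower, and Chga (0.17, adjusted p 0.0317), Chgb (0.19, 0.0308), Pcsk1 (0.41, 0.0062) and Pcsk2 (0.21, 0.00448) were higher. Cell type markers in nuclei are given beside these genes. All 6 excitatory neuron markers had positive estimates (median 0.26), 4 of them at an unadjusted p under 0.05. So did 4 of 5 interneuron markers (median 0.26), 3 of them at that p. All 6 astrocyte markers had negative estimates (median -0.12), beside -0.02 over all genes. None of these markers was called. The summed levels in unstimulated and bicuculline nuclei overlapped for excitatory neurons (704.8 to 811.2 and 688.0 to 896.8) and for astrocytes (538.5 to 630.4 and 482.9 to 574.8), no marker of these 3 lists was at 0, and their part in the result was not tested.

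In the cytosol all 10 estimates were negative, with a median of -0.18 against 0.08 over all genes tested. Their signs were the same with median-ratio scaling and quantile normalization, but without the bicuculline replicate 2 Pcsk1 was at 0.15 and Scg2 at 0.07, and without the unstimulated replicate 3 Pcsk1 was at 0.09 and Scg2 at 0.01. Without the unstimulated replicate 1 Pcsk1 was at 0.01. Negative estimates were not particular to the 10 genes: 13 of 15 prohormones tested had them (median -0.16). So did 7 of 11 other processing enzymes (median -0.06) and 7 of 21 dense-core vesicle genes (median 0.08). Excitatory neuron markers had a cytosolic median of 0.09, interneuron markers 0.15 and astrocyte markers 0.02. By limma 1 of 10, Pcsk1n, was called lower, against 0.0915% of all genes called lower and 3.27% called in either direction. With the block 5 of 10 were called lower, against 0.795% of all genes: Scg5 (-0.19, adjusted p 0.0138), Chga (-0.19, 0.0185), Pcsk2 (-0.19, 0.00664), Pcsk1n and Cpe (-0.15, 0.0441). In that fit 2062 genes were called higher and 113 lower, so the share called lower depends on the scaling. With median-ratio scaling added, a choice made after the data were seen, 7 of 10 were called lower. Beside them 595 of 14205 genes were called lower and 478 higher. Cytosolic Scg5 was at 833.4, 744.4 and 798.9 FPKM unstimulated and at 746.1, 649.3 and 683.7 with bicuculline. Cytosolic Pcsk2 was at 147.1, 160.0 and 125.6 and then at 131.8, 144.3 and 103.8. For both genes the groups overlapped while the level was lower in 3 of 3 sets, a pattern not counted over all genes. As deposited, the cytosolic groups did not overlap for Scg3, Chga, Chgb, Pcsk1n and Cpe, all lower with bicuculline. That held in this direction for 2.26% of all genes. The reference responses were smaller under triptolide than under DRB: in whole cells Npas4, Arc and Fos had changes of 0.62, 0.69 and 0.75, none of them called, and the responses differed between the inhibitors for all 3 (limma adjusted p 0.000858, 0.00052 and 0.00547).

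**Figure D2:**
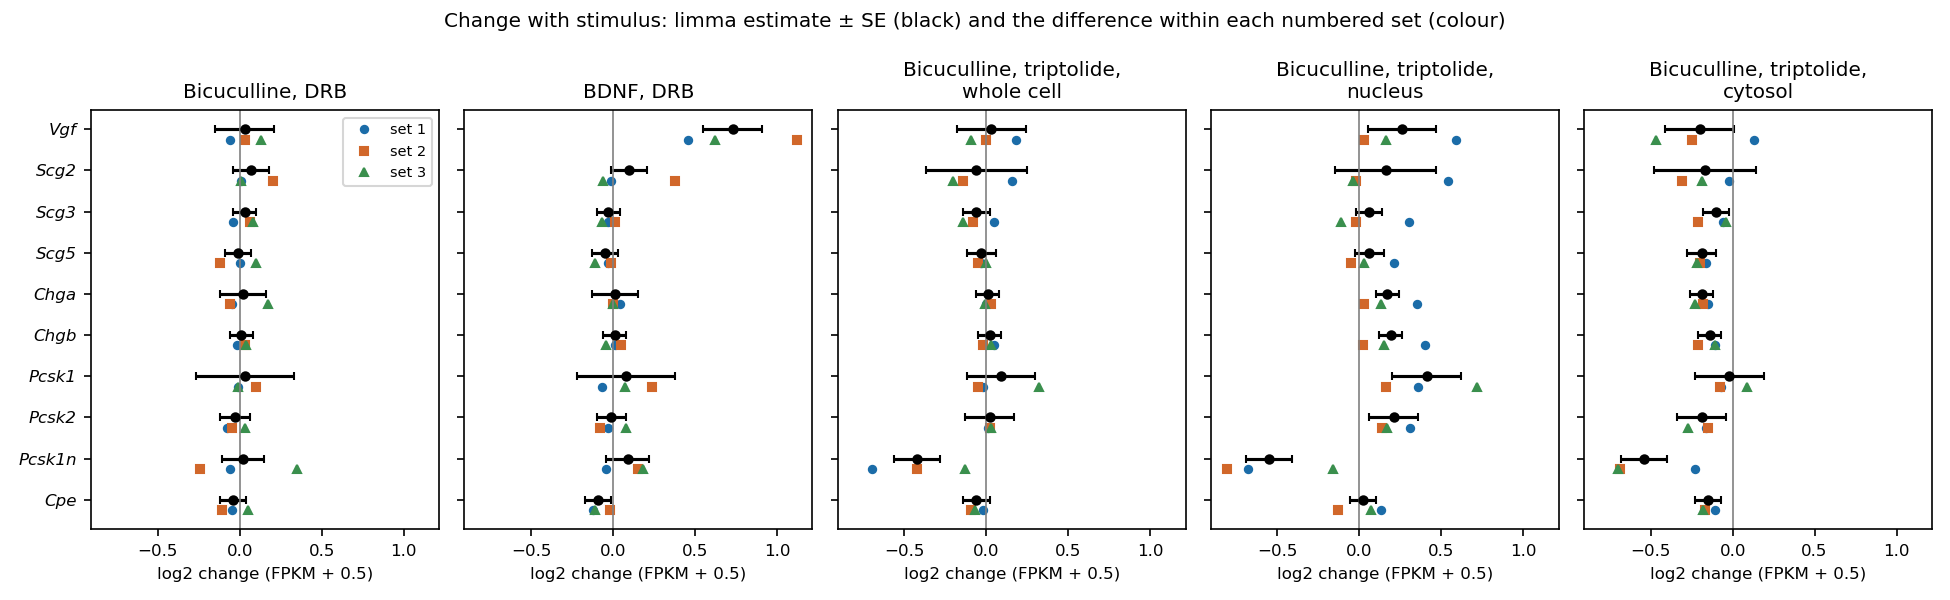
Log2 change of each of the 10 genes (y axis) with bicuculline or BDNF (x axis, FPKM + 0.5), in 5 panels for the 2 stimuli under DRB and the 3 fractions under triptolide; black points are limma estimates with SE bars and coloured points the differences within numbered sets. Vgf with BDNF (0.73) stands to the right in its panel, Pcsk1n stands to the left in the 3 triptolide panels, and the cytosol panel has every estimate below 0.

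Without stimulation, 9 of the 10 mRNAs were lower in nuclei than in cytosol, as shares of each fraction's own polyadenylated RNA. Since each library is scaled to its own total, a ratio of 1 marks a gene with the same share of both fractions, not the same number of molecules. By limma 9 of 10 were called lower in the nucleus, against 28.0% of the 14205 genes tested. With quantile normalization 6 of 10 were called, beside 41.1% of all genes called lower. The median log2 difference as deposited was -0.75 against 0.06 over all genes. Within the group the ratio ran from under 0.5 for Vgf to near 1 for Pcsk1n.

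Vgf was at 53.5, 43.9 and 48.7 FPKM in nuclei and at 106.8, 91.3 and 117.1 in cytosol. The fractions did not overlap, the ratio was 0.466 ± 0.044 (SD, n = 3), and the log2 difference was -1.10 ± 0.21 (SE; limma adjusted p 0.00027). Among the chromogranins, Chga was at 60.3, 61.6 and 58.5 in nuclei and at 122.1, 116.5 and 115.7 in cytosol, a ratio of 0.509 ± 0.018 (log2 difference -0.97 ± 0.07, adjusted p 7.34e-09). Chgb had a ratio of 0.551 ± 0.030 (-0.86 ± 0.07, adjusted p 9.62e-09). These differences were large against the spread between libraries.

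The secretogranins were more varied. Scg2 had a ratio of 0.537 ± 0.027 (-0.89 ± 0.31, limma adjusted p 0.0211), with close agreement between sets although its level varied widely, since nuclei were at 29.7, 24.9 and 42.2 FPKM and cytosol at 58.4, 45.9 and 75.2. Of the 6 fits without 1 library, 3 lost its call, as did the fit with quantile normalization (adjusted p 0.0506). Scg5 had a ratio of 0.604 ± 0.018 (-0.73 ± 0.09, adjusted p 1.57e-06). Scg3 had the highest ratio of the granins, 0.762 ± 0.083 (-0.40 ± 0.08, adjusted p 0.00042), but 0.0752 with quantile normalization.

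Both convertases were lower in nuclei. Pcsk1 had a ratio of 0.568 ± 0.043 (-0.77 ± 0.21, limma adjusted p 0.00393) and Pcsk2 0.659 ± 0.022 (-0.60 ± 0.15, adjusted p 0.0024). Cpe was closest to an equal share among the genes called, at 966.3, 897.2 and 917.4 FPKM in nuclei and 1091, 1038 and 1089 in cytosol, a ratio of 0.864 ± 0.022 (-0.21 ± 0.08, adjusted p 0.0244). Quantile normalization turned its difference to 0.15 (adjusted p 0.149), and 4 of the 6 fits without 1 library lost the call, so its direction depends on the scaling. Quantile normalization also moved the all-gene median from 0.06 to -0.12. Pcsk1n was at 44.3, 44.9 and 32.3 in nuclei and 39.3, 49.6 and 42.5 in cytosol, with overlapping fractions, a ratio of 0.930 ± 0.185 and a log2 difference of -0.12 ± 0.14 (adjusted p 0.451). For 9 genes, all but Pcsk1n, the whole-cell value lay between the nuclear and cytosolic values in 3 of 3 sets.

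The median log2 difference between nuclei and cytosol over the 10 genes was -0.41 with bicuculline and -0.75 without. Over all genes it was -0.04 and 0.06. The test of that change is given below, and the calls that follow here are for the libraries with bicuculline. By limma 5 of 10 genes were called lower in nuclei, against 31.9% of all genes: Vgf (-0.64), Chga (-0.61), Chgb (-0.53), Scg5 (-0.47) and Scg3 (-0.23), with adjusted p from 2.36e-06 (Chga) to 0.0196 (Scg3). With the block 8 were called, against 38.8% of all genes, the added ones being Scg2 (-0.56), Pcsk1 (-0.34) and Pcsk2 (-0.20). Quantile normalization left 3 calls (Scg5, Chga and Chgb). Pcsk1n (-0.13) and Cpe (-0.03) were called neither with nor without the block.

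The change of the ratio with bicuculline was upward for most of the 10 genes. Chgb had nucleus-cytosol ratios of 0.517, 0.561 and 0.575 unstimulated and 0.738, 0.659 and 0.686 with bicuculline. Chga went from 0.494, 0.529 and 0.506 to 0.700, 0.614 and 0.650, and Pcsk2 from 0.638, 0.682 and 0.656 to 0.886, 0.832 and 0.895. For each of these genes the 3 ratios with bicuculline all lay above the 3 without. That held for 8 of the 10 genes, all but Scg3 and Pcsk1n, against 7.43% of all genes tested. Cpe met it narrowly, with 0.8857 as its highest ratio unstimulated and 0.8865 as its lowest with bicuculline. The ratio was higher in 3 of 3 sets for the same 8 genes, against 10.2%.

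As a test of the difference of responses, nuclear minus cytosolic, limma called 0 of 10 genes, against 0.556% of all genes, and 2 (Chga and Chgb) had an unadjusted p under 0.05, against 16.4%. The estimates were 0.36 ± 0.10 for Chga (adjusted p 0.12), 0.33 ± 0.09 for Chgb (0.113), 0.46 ± 0.30 for Vgf (0.466), 0.43 ± 0.30 for Pcsk1 (0.49) and 0.40 ± 0.21 for Pcsk2 (0.373). Without the nuclear bicuculline replicate 1 Vgf was at 0.22 and without the nuclear bicuculline replicate 3 Pcsk1 was at 0.23, while without the nuclear bicuculline replicate 2 both were at 0.64. With the set as a block 5 of 10 were called higher, against 2.84% of all genes called higher and 9.76% in either direction: Chga (adjusted p 0.00911), Chgb (0.0175), Pcsk2 (0.00221), Scg5 (0.26, 0.0299) and Pcsk1 (0.0379). The median over the 10 genes was 0.33 and over all genes -0.11. Positive estimates were also found for 9 of 11 other processing enzymes tested (median 0.15) and 12 of 15 prohormones (0.11). Of 21 dense-core vesicle genes 11 had them (median 0). Without the block, median-ratio scaling moved the all-gene median to -0.03 and raised the calls from 0 to 2, Chga (0.0404) and Chgb (0.0329). Pcsk1n had a shift of -0.01 ± 0.19, with set differences of -0.45, -0.12 and 0.54.

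The separation of fractions over all genes moved with this result in 2 of the 3 sets. The SD over 14205 genes of the log2 difference between nucleus and cytosol was 0.74, 0.72 and 0.75 in the unstimulated sets and 0.57, 0.75 and 0.60 in those with bicuculline. Meg3, a long noncoding RNA retained in the nucleus, was at 798.4, 826.2 and 768.1 FPKM in unstimulated nuclei and at 607.6, 1265 and 623.5 with bicuculline. In set 2 that SD was not smaller with bicuculline. Pcsk1n had a log2 shift of -0.12 in that set. The other 9 genes had shifts from 0.04 (Cpe) to 0.29 (Pcsk2), with 0.15 for Scg5, 0.21 for Chga and 0.23 for Chgb. The shift in set 2 was smaller than in both other sets for 7 of these 9 genes, but for Scg2 (0.56, 0.28 and 0.15 in sets 1, 2 and 3) and Scg3 (0.36, 0.20 and -0.07) it lay between them. The part of the weaker separation in the shifts was not tested. Cell type markers are given beside the shift. All 6 excitatory neuron markers had a positive estimate (median 0.12), as did 3 of 5 interneuron markers (median 0.28). In each of these 2 lists 1 marker had an unadjusted p under 0.05. All 6 astrocyte (median -0.14), all 6 oligodendrocyte lineage (-0.24), all 3 tested microglia (-0.36) and all 5 tested progenitor markers (-0.16) had negative ones. None of those had such a p, and the median over all genes was -0.11. None of these markers was called, and their part in the shift was not tested. Leaving out the nuclear bicuculline library of set 2 raised the calls to 2 (Chga 0.0335, Chgb 0.0121) and the calls over all genes from 79 to 671.

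**Figure D3:**
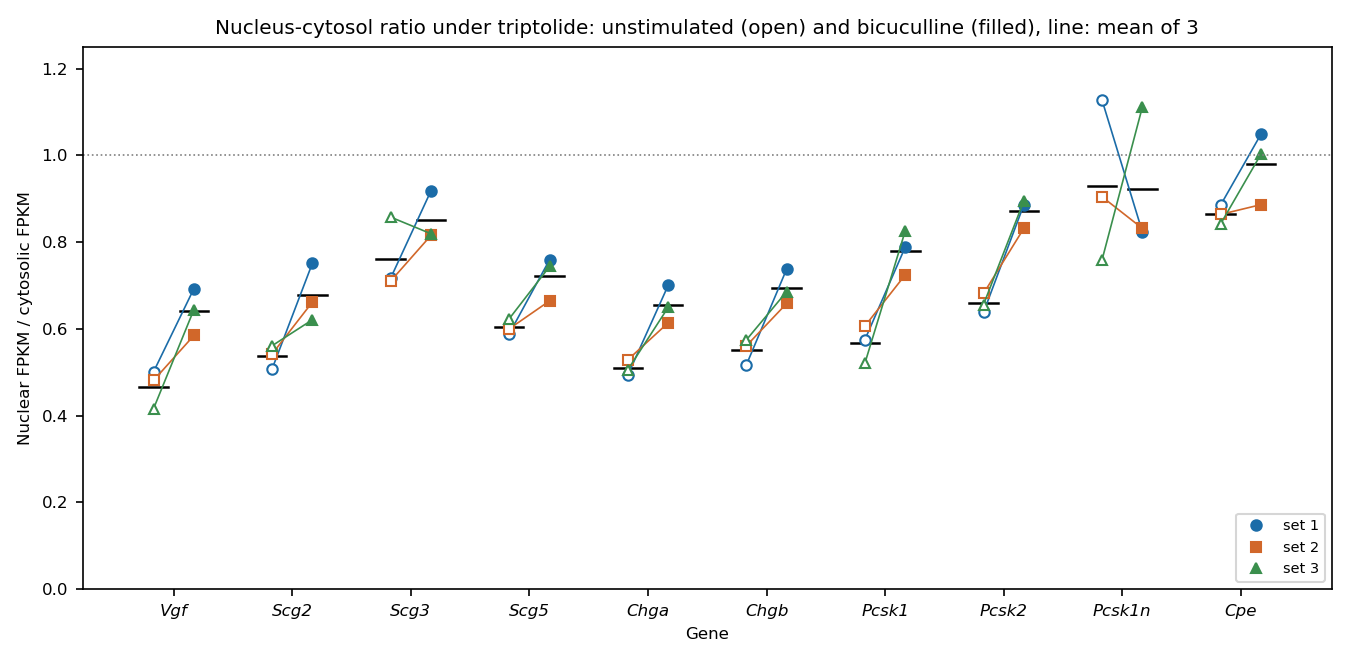
Nuclear FPKM divided by cytosolic FPKM (y axis) for the 10 genes (x axis) under triptolide, open symbols without and filled symbols with bicuculline, joined within each numbered set, with lines for the means of 3. Ratios start near 0.466 for Vgf and 0.864 for Cpe, and all 3 lines rise for 8 genes, while those of Pcsk1n cross.

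The genes also differed in how much they varied between replicate sets, apart from any treatment. Under DRB, Pcsk1 in replicate 2 was 0.48 above its group means on average and in replicate 3 it was -0.37 from them, on the log2 scale, with 11.8, 12.8 and 14.1 FPKM in the 3 replicate 2 libraries and 6.78 to 7.15 in those of replicate 3. Vgf and Chga deviated the other way in replicate 2, by -0.22 and -0.21. Under triptolide Scg2 varied most, with mean deviations of 0.08, -0.42 and 0.34 in sets 1, 2 and 3, and Pcsk1 had 0.03, -0.28 and 0.25. Over all 18 triptolide libraries the highest FPKM + 0.5 exceeded the lowest by 3.03-fold for Scg2, 2.65-fold for Vgf and 2.36-fold for Pcsk1. For Cpe it was 1.34-fold. These folds span the fractions and bicuculline as well as the sets. For Vgf the highest value (117.1 FPKM) was cytosolic and the lowest (43.9) nuclear, both unstimulated.

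**Figure D4:**
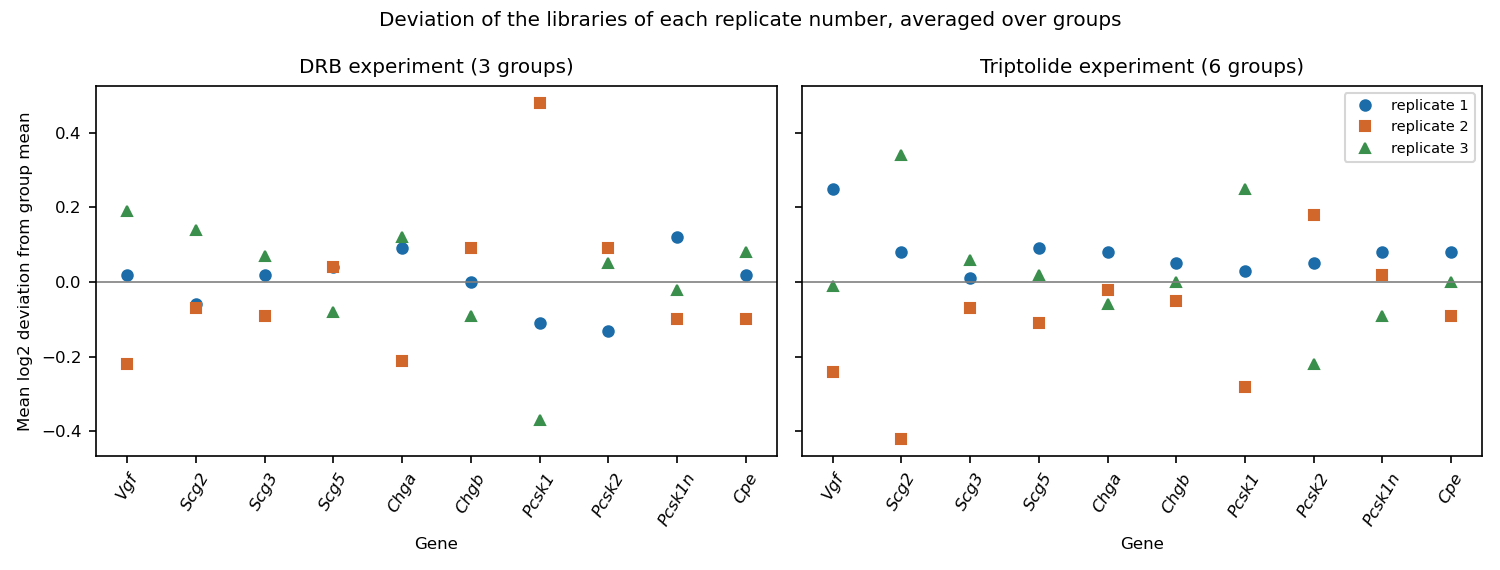
Mean log2 deviation from the group mean (y axis) of the libraries with each replicate number, for the 10 genes (x axis), under DRB (left, 3 groups averaged) and triptolide (right, 6 groups averaged). Pcsk1 spreads from -0.37 to 0.48 under DRB and Scg2 from -0.42 to 0.34 under triptolide, while Scg3, Chgb and Cpe stay within 0.10 of their group means in both.

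Across the 27 libraries the genes did not move as one block. Pearson correlations of log2(FPKM + 0.5), which reflect fractions and experiments as well as cells, were highest for Chgb with Scg5 (0.944), Cpe with Scg3 (0.907) and Vgf with Scg3 (0.878). Pcsk1n had negative correlations with 8 of the 9 others, down to -0.769 with Cpe. Among 7526 other genes, the ones most like each member included Reep2 for Chgb (0.985), Ctsb for Scg3 (0.982), Mrps33 for Cpe (0.976), Atp1b1 for Scg5 (0.957) and Elfn1 for Chga (0.946). They were Edf1 for Pcsk1n (0.942), Sqle for Pcsk2 (0.941), Tac1, the precursor of substance P, for Scg2 (0.927), Ptprr for Vgf (0.923) and Slc30a3 for Pcsk1 (0.883). These are descriptions over libraries that share groups and sets.

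In mm10 coordinates of the deposited gene models, Vgf lies at chr5:137026392-137033351 on the plus strand, with 4 introns in its GENCODE M21 reference transcript, and Pcsk1n at chrX:7919822-7924408 on the plus strand with 2. Pcsk2 (chr2:143546071-143816280, plus strand, 11 introns) spans 270210 bp, the longest of the 10, and Pcsk1n the shortest at 4587 bp. Exons of Pcsk2 overlap those of the antisense genes Pcsk2os1 (260 bp) and Pcsk2os2 (99 bp), and an exon of Pcsk1n overlaps Eras on the opposite strand (135 bp). The strand setting of the counting is not stated, so reads there cannot be assigned to 1 gene. Eras was at 0.316 FPKM or less and Pcsk2os1 at 0.448 or less in every library. The other 8 have no exonic overlap with another gene in GENCODE M21.

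The wider pathway was described by 3 lists, of other processing enzymes, dense-core vesicle proteins and prohormones. For prohormones, 15 of 22 were tested under triptolide. By limma 11 were called lower in unstimulated nuclei than in cytosol and 1 higher, with a median of -0.78. Over all genes 28.0% were called lower and 67.0% in either direction. Sst, somatostatin, also the highest of the list, was at a mean of 71.3 FPKM in nuclei and 233.6 in cytosol (-1.70 ± 0.11, limma adjusted p 1.72e-09). Npy, neuropeptide Y, differed by -1.44 and Pnoc, prepronociceptin, by -1.39, whereas Nmb, neuromedin B, was higher in nuclei by 1.09. Summed interneuron markers were also lower in unstimulated nuclei (104.8 to 130.7) than in cytosol (238.4 to 302.0), and their part in this result was not tested.

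Of 11 processing enzymes tested, 7 were lower in unstimulated nuclei and 2 higher, with a median of -0.39. Qpct, glutaminyl cyclase, differed by -0.65, the carboxypeptidase Cpd by -0.55 and the convertase Furin by -0.52, and the convertases Pcsk4 (1.14) and Pcsk7 (0.83) were higher in nuclei. Ctsl, cathepsin L and the most abundant of the list, differed by -0.30. Of 21 dense-core vesicle genes tested, 11 were lower and 3 higher, with a median of -0.27. Syt4, a synaptotagmin, differed by -0.69, Cyb561, a vesicle membrane cytochrome, by -0.63 and the vesicle GTPase Rab3a, the most abundant of the list, by -0.56, while Sorcs1 (0.59), Arfip1 (0.50) and Syt7 (0.36) were higher. All these nuclear differences are beside a median of 0.06 over all genes. Of all genes 28.0% were called lower and 67.0% in either direction, so a count of called genes alone does not set a list apart.

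The stimuli changed few genes of these lists. In each experiment 11 processing enzymes, 21 dense-core vesicle genes and 15 prohormones were tested, and the counts below are out of these. By limma none of the 3 lists had a called gene with bicuculline or BDNF under DRB, against 0.308% and 0.638% of all genes. At an unadjusted p under 0.05 there was 1 prohormone with bicuculline, against 2.0% of all genes, and none of the listed genes with BDNF, against 3.47%. In whole cells under triptolide none was called either, against 0.0352% of all genes, and 3 were higher and 1 lower at an unadjusted p under 0.05, against 11.0% in either direction. In nuclei 8 were higher and 3 lower at that p, against 17.4%, and 1 was called, against 1.81%. In the cytosol 3 were higher and 2 lower at that p, against 19.5%, and 1 was called, against 3.27%. Syt4 rose in nuclei by 0.31 ± 0.06 (adjusted p 0.0182), from a mean of 85.5 to 106.3 FPKM, and Ccdc186, needed for dense-core vesicle maturation, rose in the cytosol by 0.38 ± 0.10 (adjusted p 0.0447), from 6.02 to 7.97. The change of Syt4 in the cytosol was -0.02 ± 0.06. The Ccdc186 call is close to the threshold, beside a median of 0.08 over all genes in the cytosol. Genes called higher there fell from 452 to 19 with median-ratio scaling, under which Ccdc186 was not examined.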

How the data were processed

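There were 27 libraries of polyadenylated RNA from primary cortical cells of the mouse. The values are FPKM computed and deposited by the authors, 1 value per gene model and library, on mm10 coordinates. Per the labels' protocols, a stranded mRNA kit was used. Alignment tools are listed in the submitters' processing notes (STAR 2.4.0, with SAMtools, Picard, FastQC and the build mm10). How fragments were counted, with which program and strand setting, is not given in the sources used here.

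Values were analysed as log2(FPKM + 0.5), which understates changes of low genes. A gene was tested where 3 or more libraries of its experiment reached an FPKM of 1, with limma 3.58.1 (R 4.3.3; trend and robust moderation, 1 mean per group), with Benjamini-Hochberg adjustment over all genes tested and calls under 0.05. There were 10 comparisons. The members and lists were chosen with earlier results of these data known. The 10 members are named throughout. Of the lists, the genes called (at most 3 per direction and list, by size) and the most abundant gene are named. Genes like a member were the 3 with the highest correlation among those whose mean FPKM reached 5, of which the first is printed. Npas4, Arc and Fos serve as reference responses.

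Same-numbered libraries correlated in their deviations from the group means at 0.256 to 0.902 in every comparison within an experiment, and each correlated best with its own number, so the numbers were taken to pair libraries. The sample descriptions also give same-numbered libraries of an experiment a shared code, without saying what it marks. The alternatives were pseudocounts of 0.1 and 1, no filter, median-ratio scaling, quantile normalization, the replicate block, no trend or robust moderation, only the groups compared, and leaving out each library. Depth was estimated from the steps between low values of single-exon genes, and no count-based test was run. Figures used Python 3.11.15 and matplotlib 3.10.9.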

Additional observations from a re-analysis of the deposited data

How the results depend on the processing

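Under the alternatives, 1630 log2 values of single members gave the same call as reported in 1551 cases, lost it in 28, gained it in 50 and reversed in 1, the nuclear-cytosolic difference of Cpe, at 0.15 with quantile normalization; the cause was not tested. Among the 1551 cases with the same call, the sign changed in 151 with no call in either fit. These were values of at most 0.2 in size as reported. The replicate block raised the members called with BDNF under DRB to 1, with bicuculline in nuclei and in cytosol to 5 each, for nuclei against cytosol with bicuculline to 8, and for the difference of responses between nucleus and cytosol to 5. The block with median-ratio scaling, chosen after seeing the data, gave 1, 5, 7, 8 and 7. The block changed no other count of members. Median-ratio scaling alone gave 1 in nuclei, 0 in cytosol and 2 for the difference of responses, and quantile normalization 1 in nuclei, 0 in cytosol, 6 for nuclei against cytosol unstimulated and 3 with bicuculline. With no filter, no trend or robust moderation, or only the groups compared, the cytosolic count was 0. Leaving out 1 library gave 0 to 1 in nuclei, 0 to 0 in cytosol, 7 to 9 for nuclei against cytosol unstimulated, 3 to 6 with bicuculline and 0 to 2 for the difference of responses. For nuclei against cytosol with bicuculline, Vgf and Scg3 were lost without the nuclear replicate 2 or the cytosolic replicate 1, and Scg3 without the cytosolic replicate 3.

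Counts over all genes moved as well. Without 1 library they ran from 21 (unstimulated replicate 1) to 520 (bicuculline replicate 2) in nuclei, from 12 (unstimulated replicate 3) to 334 (unstimulated replicate 2) in cytosol and from 9 (cytosolic bicuculline replicate 1) to 671 (nuclear bicuculline replicate 2) for the difference of responses. They ran from 1 to 5 in whole cells, 27 to 38 for bicuculline and 50 to 68 for BDNF under DRB, 9 to 20 for BDNF against bicuculline and 9 to 19 for DRB against triptolide. With the block they were 76 (41 as reported) for bicuculline and 199 (85) for BDNF under DRB, 72 (17) for BDNF against bicuculline, 601 (5) in whole cells, 1862 (257) in nuclei, 2175 (465) in cytosol, 1387 (79) for the difference of responses and 38 (19) for DRB against triptolide. Median-ratio scaling gave 31 in cytosol, where the split was 19 higher and 12 lower against 452 and 13, and 153 for the difference of responses, 107 higher and 46 lower against 12 and 67. Quantile normalization split the genes called between unstimulated nuclei and cytosol into 3943 higher and 5837 lower against 5540 and 3971, and with bicuculline into 3374 and 5158 against 4449 and 4534. It gave 682 in nuclei, 2 in cytosol and 48 for the difference of responses, and no filter gave 561, 106 and 29. With only the groups compared, 1 gene was called in nuclei and 4 in cytosol. With 3 libraries per group the spread between libraries limits the tests; every member had at least 2081 estimated fragments per library. With no filter, nuclei against cytosol had 19387 (9511) unstimulated and 16850 (8983) with bicuculline.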
